A study of Mus musculus with 7 samples.

Results

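A set of 31 genes of cholesterol and fatty acid synthesis was examined in mouse pancreatic alpha cells with and without an intact Nkx2-2 gene. The set was defined by gene symbol, and all 31 were found in the deposited table of 55536 genes, each under 1 entry. It holds 5 regulators of the pathway, 7 enzymes that lead from hydroxymethylglutaryl-CoA synthase to squalene, 9 enzymes that lead from squalene to cholesterol, 5 enzymes of fatty acid synthesis, 4 fatty acid desaturases and the cholesterol exporter Abca1. Alpha cells are the glucagon-secreting cells of the islet. They were sorted from islets by red fluorescence and their RNA was sequenced, in 4 control libraries (Nkx2.2+/+;Gcg-iCre;Rosa26:tdTomato) and 3 knockout (KO) libraries (Nkx2.2fl/fl;Gcg-iCre;Rosa26:tdTomato). Both groups therefore carried the Cre recombinase expressed from the glucagon gene and the tdTomato reporter that Cre switches on, on the strain written C57B1/6J in the series' design text, and they differed in the Nkx2-2 allele that Cre can delete. The age and sex of the mice, whether animals were pooled, and which exons the floxed allele loses are not given in the sources used here. The study asked how NKX2.2, a homeodomain transcription factor, regulates genes in alpha cells in vivo.

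Cholesterol is built from acetyl-CoA through mevalonate, squalene and lanosterol, and fatty acids from the same acetyl-CoA through malonyl-CoA. Both pathways are controlled by the membrane-bound factors SREBP-1 and SREBP-2, the products of Srebf1 and Srebf2. When membrane sterol is low, the escort protein SCAP carries them to the Golgi, where site-1 and site-2 proteases release the part that enters the nucleus. When sterol is plentiful, INSIG proteins hold SCAP in the endoplasmic reticulum. In endocrine cells such as the alpha cell, these lipids supply the membranes of secretory granules and of the cell surface.

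Total counts ran from 45483504 to 72456557 per library, and the glucagon gene Gcg took between 11.4% and 13.5% of them in controls and between 5.87% and 7.39% in KO libraries. Nkx2-2, the targeted gene, had between 8596 and 12297 normalized counts in controls and between 7534 and 7758 in KO libraries (log2 fold change -0.45 ± 0.13 SE; DESeq2 adjusted p 0.0218, edgeR adjusted p 0.152). Of 8 alpha cell markers, DESeq2 called 7 lower in KO and edgeR 3, and the edgeR adjusted p of Gcg was 0.175. Among the markers of other islet cells, both tools called the gamma cell gene Ppy higher in KO. Ppy had between 178540 and 401493 normalized counts in controls and between 615185 and 783711 in KO libraries. The summed level of 3 delta cell markers was 196046 to 398527 in controls and 354922 to 631739 in KO, that of 7 beta cell markers 332453 to 681507 and 522962 to 962311, and that of 4 duct markers 803 to 1322 and 1554 to 2515. DESeq2 called 1 of the beta, 1 of the delta and 1 of the duct markers higher and edgeR 0, and the beta and delta sums overlapped between the groups. Of 4 leukocyte markers, the macrophage gene C1qa fell in KO (log2 -0.82, DESeq2 adjusted p 0.0113, edgeR adjusted p 0.140). The others, Ptprc, Cd68 and Lyz2, had fewer counts and overlapping groups, with log2 fold changes of 1.30, 0.51 and 0.53. The part of these cell types in the results below was not tested, and in sorted but bulk RNA a change in the share of cells and a change in RNA per cell cannot be told apart. Fat cells, which are rich in lipid synthesis enzymes, were close to absent by their markers. The summed level of 8 adipocyte genes lay between 11.3 and 36.9 normalized counts in controls and between 8.80 and 33.0 in KO libraries. Leptin (Lep) was at 0 counts in 6 of the 7 libraries and Adipoq in 5.

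Among the sterol synthesis enzymes, 4 of 16 rose in KO by DESeq2, and 0 of the 5 enzymes of fatty acid synthesis did. The difference between the branches was not tested. In the DESeq2 comparison over all genes, 6 of the 31 genes rose in KO at an adjusted p-value under 0.05 and 0 fell, where 2.24% of the 17571 genes tested rose and 2.27% fell, together 4.51%. The 6 were Insig1, Idi1, Lss, Cyp51, Msmo1 and Scd2, and their increases ran from 1.31-fold for Lss to 2.11-fold for Idi1. The median log2 fold change of the 31 genes was 0.25, beside 0.01 over all genes tested, and 24 of the 31 had a positive value, as did 51.8% of all genes. Among the 16 cholesterol enzymes the median was 0.40 and 14 values were positive. Among the 9 fatty acid enzymes and desaturases it was 0.11 and 6 were positive. Every KO library lay above every control for 11 of the 31 genes, a pattern shown by 6.07% of all genes tested, and below every control for 2, a pattern shown by 5.94%.

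**Figure D1:**
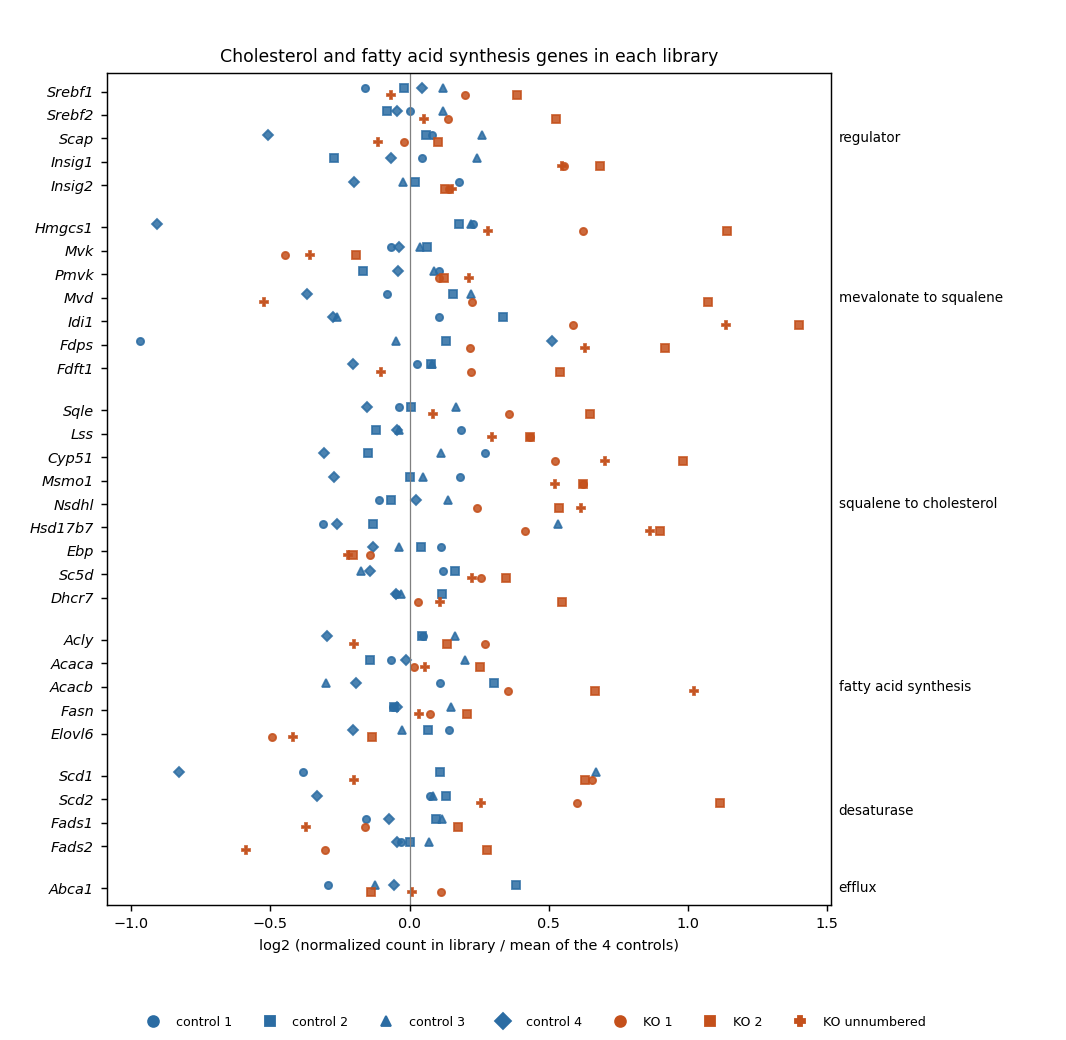
Normalized count of each of the 31 genes in each library, as log2 of its ratio to the mean of the 4 controls, with genes in rows grouped by role. Blue symbols are control and orange symbols KO libraries, and for Insig1, Cyp51, Msmo1, Lss, Scd2 and Idi1 every orange symbol lies to the right of every blue one. The same holds for Hmgcs1, Pmvk, Nsdhl, Sc5d and Acacb, which DESeq2 did not call, for Pmvk by a narrow margin.

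These counts depended on the tool and on single libraries. The edgeR quasi-likelihood test called 0 of the 31 genes at an adjusted p under 0.05, where it called 1.05% of all genes, and its smallest adjusted p was 0.0613, for Insig1. On counts simulated from these libraries, DESeq2 made false calls many times more often than its threshold allows, and edgeR stayed near the threshold. That simulation took the spread estimated for each gene as its true spread, so the shares need not carry over to these data. All 6 calls were made by DESeq2 alone, so some of them may be false. At an unadjusted p under 0.05, edgeR placed 11 of the 31 higher and 2 lower (5.35% and 5.18% of all genes), and DESeq2 also 11 higher and 2 lower (6.25% and 5.91%). Without KO 2 only Insig1 kept its DESeq2 call, beside 3.35% of all genes called, and the median of the 31 genes was 0.15. Without KO 1 there were 3 calls, Insig1, Idi1 and Cyp51, beside 2.39% of all genes. KO 2 was the highest of the 7 libraries for 18 of the 31 genes, beside 15.5% of all genes tested. It was also the highest for 4 of 4 endothelial and 4 of 4 duct markers. Plvap, an endothelial gene, had 306 normalized counts in KO 2 and between 31.3 and 97.8 in the other 6 libraries, and Kdr had 244 against 27.4 to 101. Their part in the results was not tested. Control 4 was the lowest for 11 of the 31, beside 25.0% of all genes. It was also the lowest for 7 of 7 beta, 7 of 7 acinar, 2 of 3 delta and 0 of 8 alpha markers. The part of these markers in the results was also not tested. The shares of 15.5% and 25.0% are over all genes, of which 51.8% had a positive fold change, while 24 of the 31 did. They are therefore not shares among genes with a like direction.

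Insig1 was the called gene among the 5 regulators. It encodes an endoplasmic reticulum protein that retains SCAP when sterols are high, and it is itself a target of the SREBP factors (ENSMUSG00000045294, chromosome 5, 28071363 to 28078662, plus strand). Insig1 had 2111, 1695, 2421 and 1953 normalized counts in the controls, in the order of their numbers. The KO libraries, in the order KO 1, KO 2 and the unnumbered library, had 3007, 3285 and 2986, and the same orders hold throughout. All 3 KO values were above the highest control, and they differed from each other by less than the controls did. The mean went from 2045 ± 304 (SD, n = 4) to 3093 ± 167 (SD, n = 3), a 1.51-fold increase (log2 0.60 ± 0.14 SE; DESeq2 adjusted p 0.00134, edgeR adjusted p 0.0613). Each of the 7 fits that left out 1 library kept the DESeq2 call of Insig1, with log2 fold changes from 0.52 to 0.69. Its paralog Insig2, which has the same retaining role, had 1011, 906, 879 and 777 normalized counts in controls and 985, 976 and 992 in KO libraries. The KO values fell inside the range of the controls, and the log2 fold change was 0.14 (95% interval -0.13 to 0.42, adjusted p 0.901 in DESeq2).

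The transcription factor genes themselves did not pass the test. Srebf2, which encodes the factor that mainly drives sterol synthesis, had 7013, 6626, 7614 and 6798 normalized counts in controls and 7716, 10099 and 7262 in KO libraries, so that KO 2 stood above the rest and the unnumbered KO library lay among the controls. Its log2 fold change was 0.25 (95% interval -0.01 to 0.52, adjusted p 0.458 in DESeq2). Srebf1, whose products favour fatty acid synthesis, had 2817, 3104, 3416 and 3242 in controls and 3611, 4114 and 3003 in KO libraries, and the groups overlapped (log2 0.18, 95% interval -0.09 to 0.46, adjusted p 0.762 in DESeq2). The counts are per gene and do not separate the SREBP-1a and SREBP-1c transcripts. Scap had 3803, 3749, 4314 and 2531 normalized counts in controls and 3549, 3863 and 3326 in KO libraries. The lowest control, control 4, lay below all others, and the log2 fold change was -0.01 (95% interval -0.35 to 0.34). Exons of an opposite-strand gene cover 13.2% of the exon length of Scap.

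Between hydroxymethylglutaryl-CoA and squalene, DESeq2 called 1 of the 7 enzymes higher in KO, beside 2.24% of all genes, and edgeR called 0. Idi1 encodes isopentenyl-diphosphate isomerase, which makes the primer unit of isoprenoid chains (ENSMUSG00000058258, chromosome 13, 8885501 to 8892451, plus strand). Normalized counts of Idi1 were 304, 356, 235 and 233 in controls and 424, 744 and 620 in KO libraries, with no overlap and the widest spread among the KO libraries. The mean went from 282 ± 59.2 (SD, n = 4) to 596 ± 161 (SD, n = 3), a 2.11-fold increase (log2 1.08 ± 0.26 SE; DESeq2 adjusted p 0.00161, edgeR adjusted p 0.0798). It was the largest fold change of the 31 genes, and its adjusted p was 0.0775 without KO 2. A share of 25.3% of the 50-base words in its annotated transcripts also occurs in other genes, most often in Gm13502, and 9.22% of its exon length lies under an antisense gene, so its counts are uncertain.

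Hmgcs1, the cytosolic synthase at the start of the sterol branch, had 1873, 1808, 1863 and 852 normalized counts in controls and 2465, 3525 and 1942 in KO libraries (chromosome 13, 119690379 to 119708260). Controls 1 to 3 lay close together, control 4 stood far below them, and the lowest KO library was just above the highest control. Hmgcs1 missed the threshold at log2 0.73 ± 0.27 SE (DESeq2 adjusted p 0.127, edgeR adjusted p 0.389). Without the unnumbered KO library Hmgcs1 passed the threshold (log2 0.90, adjusted p 0.0412), and without control 4 the log2 fold change was 0.52 (adjusted p 0.0696). An antisense gene covers 12.1% of its exon length. Mvk, mevalonate kinase, ran the other way, with 421, 461, 452 and 430 normalized counts in controls and 324, 386 and 344 in KO libraries. All KO values of Mvk lay below all controls, but the change missed the threshold (log2 -0.33 ± 0.17 SE; DESeq2 adjusted p 0.404). Pmvk, the kinase of the next step, had 968, 801, 956 and 875 in controls and 969, 981 and 1045 in KO libraries. The groups of Pmvk were separated by a narrow margin, and the log2 fold change was 0.15 (95% interval -0.11 to 0.41). The other 3 enzymes, Mvd, Fdps and Fdft1, had overlapping libraries and log2 fold changes of 0.40, 0.61 and 0.24, with adjusted p-values from 0.709 to 0.892 in DESeq2. Mvd reached 353 normalized counts in KO 2 and 117 in the unnumbered KO library, around a control range of 130 to 196, and without KO 2 its log2 fold change was -0.10. Fdps, farnesyl diphosphate synthase, was the lowest gene of this branch per length, with 16.4 ± 6.21 (SD, n = 4) normalized counts per kilobase of exon in controls. Fdps had 35.2, 75.5, 66.7 and 98.3 normalized counts in controls and 80.2, 130 and 107 in KO libraries, where KO 1 lay inside the control range. Other genes share 26.2% of its 50-base words and 26.7% of its exon length lies under exons of other genes on the same strand, so its counts are uncertain. Fdft1 shares 18.3% of its exon length with Ctsb on the opposite strand.

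From squalene to cholesterol, DESeq2 called 3 of the 9 enzymes higher in KO, beside 2.24% of all genes, and edgeR called 0. A positive fold change was found for 8 of the 9, beside 51.8% of all genes. Cyp51 encodes lanosterol demethylase (ENSMUSG00000001467, chromosome 5, 4081145 to 4104746, minus strand) and had 1211, 906, 1086 and 812 normalized counts in controls and 1442, 1985 and 1631 in KO libraries. The groups did not overlap, and the means were 1004 ± 179 (SD, n = 4) and 1686 ± 275 (SD, n = 3), a 1.68-fold increase (log2 0.75 ± 0.18 SE; DESeq2 adjusted p 0.00224, edgeR adjusted p 0.0812). Without KO 2 the adjusted p of Cyp51 was 0.0748. Msmo1, a methylsterol oxidase that acts later in the same branch (ENSMUSG00000031604, chromosome 8, 64718139 to 64733792, minus strand), had 948, 837, 865 and 693 normalized counts in controls and 1289, 1288 and 1201 in KO libraries. The KO libraries of Msmo1 lay close together and well above the controls, with means of 836 ± 106 (SD, n = 4) and 1259 ± 50.5 (SD, n = 3), a 1.51-fold increase (log2 0.59 ± 0.15 SE; DESeq2 adjusted p 0.00305, edgeR adjusted p 0.0738). It missed the threshold without KO 1 (adjusted p 0.0974) and without KO 2 (0.0625), with the fold change at log2 0.57 in both fits.

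Lss encodes lanosterol synthase, which folds squalene epoxide into the first sterol ring (ENSMUSG00000033105, chromosome 10, 76531588 to 76557138, plus strand). It had 1383, 1120, 1186 and 1178 normalized counts in controls and 1643, 1641 and 1496 in KO libraries, without overlap. The increase was 1.31-fold (log2 0.39, SE 0.13) and the call was marginal. Its DESeq2 adjusted p was 0.0492, or 0.0503 when genes at 0 in every library stayed in the table, and 0.173 in edgeR. Of the 7 fits that left out 1 library, the one without control 1 kept the call (adjusted p 0.0274). The other 6, without control 2, control 3, control 4, KO 1, KO 2 and the unnumbered KO library, gave 0.204, 0.229, 0.106, 0.430, 0.311 and 0.104.

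Sqle, squalene epoxidase, which controls entry into the sterol ring steps, had 1768, 1818, 2034 and 1631 normalized counts in controls and 2320, 2840 and 1920 in KO libraries. The unnumbered KO library overlapped the controls, and Sqle missed the threshold at log2 0.38 ± 0.16 SE (DESeq2 adjusted p 0.206). Without that library the adjusted p of Sqle was 0.0334. Nsdhl, which removes carbon from the sterol ring after Msmo1, had 236, 243, 280 and 259 in controls and 301, 369 and 390 in KO libraries, with no overlap (log2 0.47 ± 0.20 SE; DESeq2 adjusted p 0.217). Hsd17b7, the reductase of the same step, had 152, 172, 273 and 158 in controls and 251, 352 and 344 in KO libraries. Control 3 alone reached the KO range, the log2 fold change was 0.75 (SE 0.29) and the adjusted p 0.147, and without control 3 these were 0.97 and 0.0147. Sc5d, the sterol desaturase, had 989, 1019, 807 and 825 in controls and 1088, 1158 and 1064 in KO libraries, again without overlap (log2 0.28, SE 0.15, adjusted p 0.432). Dhcr7, the last reductase, differed by log2 0.25 (DESeq2 adjusted p 0.758), with KO 2 at 778 and the other 6 libraries between 515 and 578. Ebp, the sterol isomerase, had 560, 533, 505 and 473 in controls and 469, 449 and 444 in KO libraries, which placed every KO library below every control by a small margin (log2 -0.19 ± 0.15 SE; DESeq2 adjusted p 0.818).

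**Figure D2:**
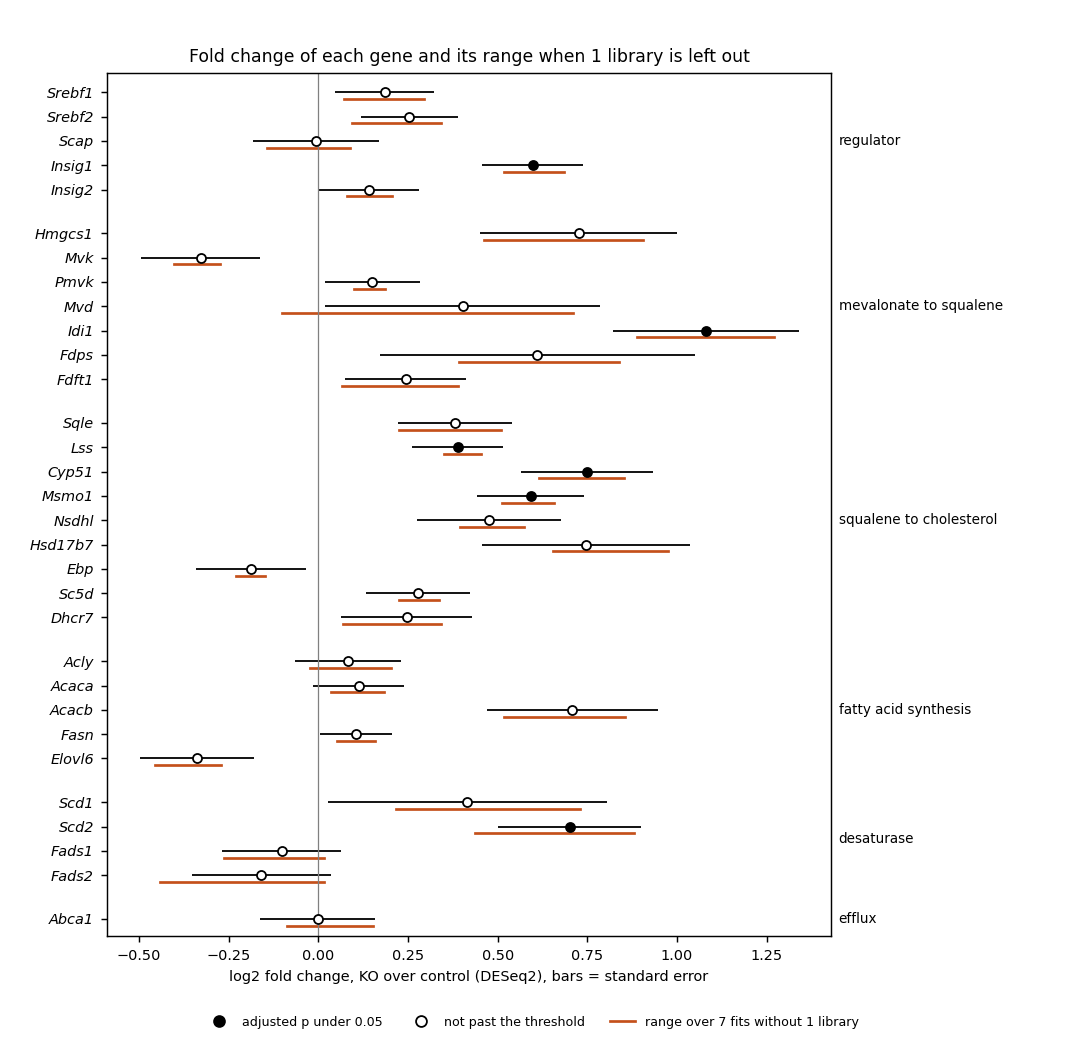
DESeq2 log2 fold change, KO over control, of each of the 31 genes with its standard error (black) and its range over the 7 fits that each left out 1 library (orange). Filled points have an adjusted p under 0.05, which are 6 genes between log2 0.39 and 1.08, all on the positive side.

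Of the 5 enzymes of fatty acid synthesis DESeq2 called 0 in either direction, beside 4.51% of all genes. The estimates for Acly, Fasn and Acaca ran from log2 0.08 to 0.11, and those for Acacb and Elovl6 lay further from the controls. Acly, which supplies cytosolic acetyl-CoA from citrate, had 39489, 39433, 42848 and 31100 normalized counts in controls and 46102, 41968 and 33279 in KO libraries. The groups overlapped (log2 0.08, 95% interval -0.21 to 0.37, adjusted p 0.987 in DESeq2). Fasn, the fatty acid synthase, had 8488, 8509, 9809 and 8569 in controls and 9296, 10192 and 9051 in KO libraries, and KO 1 and the unnumbered library lay below control 3 (log2 0.11, 95% interval -0.09 to 0.30). Acaca, the cytosolic acetyl-CoA carboxylase that makes malonyl-CoA for synthesis, had 2440, 2318, 2938 and 2537 in controls and 2589, 3048 and 2657 in KO libraries (log2 0.11, 95% interval -0.14 to 0.36). For Acly, Fasn and Acaca the intervals leave out log2 0.60, the estimate for Insig1. The interval of Insig1 itself, 0.32 to 0.87, overlaps those of Acly and Acaca, and the difference between these genes was not tested. Other genes share 30.4% of the 50-base words of Acaca. Acacb, the mitochondrial carboxylase whose malonyl-CoA restrains fatty acid oxidation, had 377, 431, 284 and 306 normalized counts in controls and 446, 555 and 708 in KO libraries. The groups of Acacb did not overlap, but the gene missed the threshold at log2 0.71 ± 0.24 SE (DESeq2 adjusted p 0.061, edgeR adjusted p 0.213). Without control 2 its adjusted p in DESeq2 was 0.0294. Elovl6, which lengthens palmitate, had 1061, 1006, 944 and 836 in controls and 684, 877 and 719 in KO libraries, with KO 2 inside the control range (log2 -0.34, SE 0.16, adjusted p 0.320).

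Of the 4 desaturases DESeq2 called 1, Scd2, higher in KO, beside 2.24% of all genes, and edgeR called 0. Scd2 encodes a stearoyl-CoA desaturase, which makes monounsaturated fatty acids (ENSMUSG00000025203, chromosome 19, 44293674 to 44306864, plus strand). Scd2 had 3283, 3415, 3304 and 2474 normalized counts in controls and 4727, 6756 and 3724 in KO libraries. No libraries overlapped, KO 2 was the highest and control 4 the lowest, and the means were 3119 ± 434 (SD, n = 4) and 5069 ± 1545 (SD, n = 3). The increase was 1.63-fold (log2 0.70 ± 0.20 SE; DESeq2 adjusted p 0.0146, edgeR adjusted p 0.169). Without KO 2 the log2 fold change was 0.44 and the adjusted p 0.232, and without KO 1 the adjusted p was 0.0714. Its neighbour and paralog Scd1 had 147, 208, 306 and 108 in controls and 303, 297 and 167 in KO libraries, with overlap (log2 0.42, 95% interval -0.35 to 1.18, adjusted p 0.886). The paralogs can exchange few reads, since 3.97% of the 50-base words of Scd2 and 4.56% of those of Scd1 occur in other genes. Fads1 and Fads2, neighbours on chromosome 19 that introduce double bonds into polyunsaturated fatty acids, had log2 fold changes of -0.10 and -0.16 (95% intervals -0.43 to 0.22 and -0.54 to 0.22). Their KO libraries ran from 973 to 1419 and from 1197 to 2184, around control ranges of 1130 to 1364 and 1747 to 1889.

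Abca1, which exports cholesterol and is a target of the oxysterol receptors (LXR), had 11427, 18231, 12830 and 13469 normalized counts in controls and 15124, 12714 and 14069 in KO libraries. All KO values lay inside the control range, and the mean was 13989 ± 2954 (SD, n = 4) and 13969 ± 1208 (SD, n = 3) (95% interval -0.32 to 0.31, adjusted p 0.999 in DESeq2).

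Levels per exon length placed the genes in a wide order within the same cells. Acly was the highest, with 7239 ± 948 (SD, n = 4) normalized counts per kilobase in controls, and Fdps the lowest. Abca1 (1350 ± 285), Srebf2 (976 ± 60.0) and Fasn (808 ± 58.9) followed Acly. Among the regulators Srebf2 was highest and Insig2 lowest (257 ± 27.7), and Insig1 moved from 661 ± 98.2 in controls to 1000 ± 54.0 (SD, n = 3) in KO. Pmvk was the highest enzyme of the mevalonate branch (525 ± 45.4). In the ring branch Sqle was highest (327 ± 30.2) and Hsd17b7 lowest (37.0 ± 11.2). Of the fatty acid enzymes Acacb was lowest (36.2 ± 6.98), close to Scd1 among the desaturases (39.3 ± 17.6), a difference within the SD of either. Scd2 (571 ± 79.4) and Fads2 (547 ± 19.1) differed in controls by less than the SD of Scd2 and by more than that of Fads2. Summed over the 16 cholesterol enzymes, the level was 3297, 3167, 3292 and 2698 normalized counts per kilobase in the controls and 3783, 4669 and 3614 in KO libraries, so that each KO library held more than each control. Summed over the 5 fatty acid synthesis enzymes, where Acly dominates, the controls had 8603, 8584, 9361 and 6984 and the KO libraries 9886, 9253 and 7472, with overlap.

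**Figure D3:**
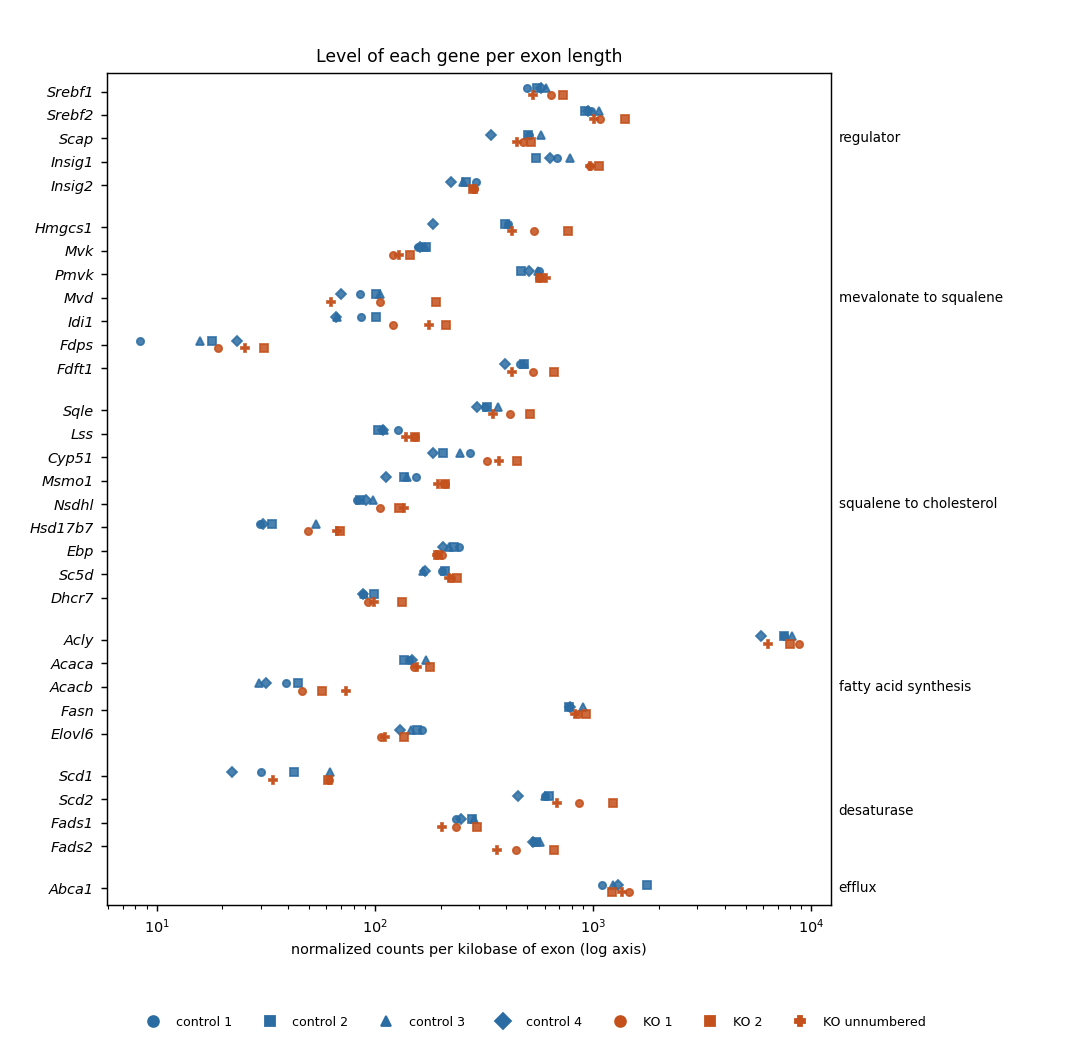
Normalized counts per kilobase of exon for each of the 31 genes and each library, on a log axis, with blue control and orange KO symbols. Acly lies far to the right near 7239, while Fdps, Acacb, Hsd17b7 and Scd1 have the lowest control levels, between 16.4 and 39.3.

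The balance within 5 pairs of related genes was compared as the log2 ratio of levels per kilobase in each library, with an exact two-sided permutation test over the libraries, which can be divided into 4 and 3 in 35 ways and can give no p below 0.0571. No ratio could therefore pass 0.05 in this design. Insig1 exceeded Insig2 by log2 1.07 (control 2) to 1.63 (control 3) in the controls, and by 1.78, 1.92 and 1.76 in the KO libraries. The groups did not overlap and the difference of 0.46 had that smallest p (exact permutation p = 0.0571, 0.286 after Benjamini-Hochberg adjustment over 5 ratios). Control libraries had an Acaca to Acacb ratio of 2.06 ± 0.412 (SD, n = 4) against 1.48 ± 0.343 (SD, n = 3) for KO libraries, a difference of -0.59 (exact permutation p = 0.171, adjusted 0.429). Srebf1 lay below Srebf2 in every library, by a log2 ratio between -0.97 and -0.72 (KO minus control -0.06, exact permutation p = 0.571, adjusted 0.714). Scd1 lay far below Scd2 in every library, between -4.35 and -3.27. Although DESeq2 called Scd2 higher, the difference of their ratio was -0.20 with overlapping groups (exact permutation p = 0.857, adjusted 0.857). Fads1 lay below Fads2 throughout, with a difference of 0.09 between genotypes (exact permutation p = 0.4, adjusted 0.667).

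**Figure D4:**
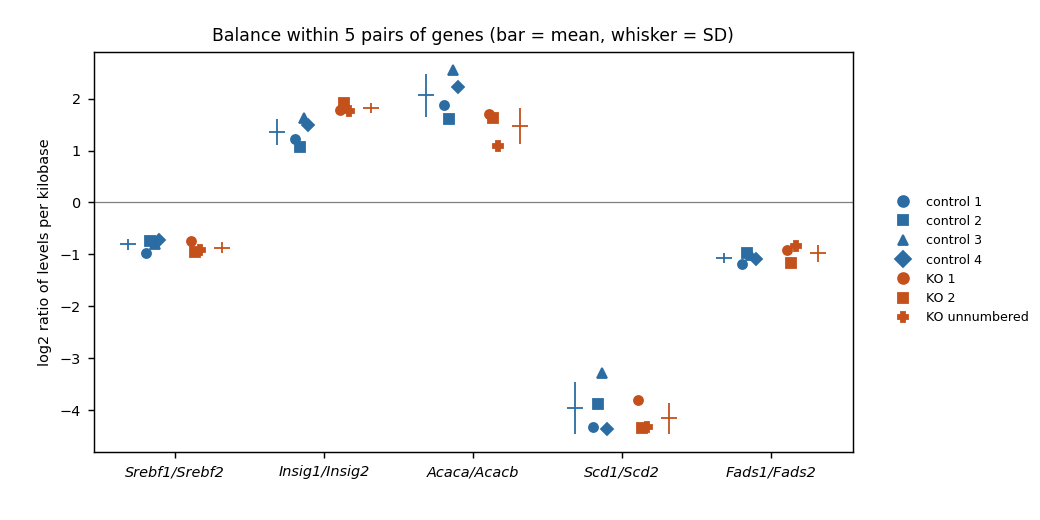
Log2 ratio of levels per kilobase within 5 gene pairs in each library (symbols), with the mean and SD of each group beside them (bars and whiskers). Only for Insig1 over Insig2 do all KO libraries, from 1.76 to 1.92, lie above all controls, from 1.07 to 1.63.

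Promoter sequences were available for 25 of the 31 genes in RefSeq (GRCm38.p6), among them 5 of the 6 that DESeq2 called higher. The 250 bases upstream of each RefSeq start were searched on both strands for TCACNCCAC, a form of the sterol regulatory element bound by SREBP, for CCAAT, the box of the SREBP partner NF-Y, for GGGCGG, the GC box, for CACGTG, an E-box, and for TNAAGTG, the core of the sites of NKX2.2-type homeodomains. A gene counts once if any of its starts holds the motif. CCAAT was found for 19 of 25 genes (76%), beside 37.5% of the 27025 genes with a promoter, and GGGCGG for 20 (80%), beside 35.4%. All 5 called genes with a promoter held both. CACGTG was found for 6 genes (24%, beside 6.86%), TCACNCCAC for 1, Hmgcs1 (4%, beside 1.22%), and TNAAGTG for 2, Scap and Dhcr7 (8%, beside 11.4%). The upstream sequences of the 5 called genes and of Hmgcs1 are shown 5′ to 3′ on the strand of the gene, to set the motif content beside their changes, with any of the 5 motifs in capitals on either strand. They lie at chr5:28071162-28071411, plus strand (Insig1), chr13:8885356-8885605, plus strand (Idi1), chr10:76531355-76531604, plus strand (Lss), chr5:4104698-4104947, minus strand (Cyp51), chr8:64733579-64733828, minus strand (Msmo1) and chr13:119690101-119690350, plus strand (Hmgcs1).
Insig1: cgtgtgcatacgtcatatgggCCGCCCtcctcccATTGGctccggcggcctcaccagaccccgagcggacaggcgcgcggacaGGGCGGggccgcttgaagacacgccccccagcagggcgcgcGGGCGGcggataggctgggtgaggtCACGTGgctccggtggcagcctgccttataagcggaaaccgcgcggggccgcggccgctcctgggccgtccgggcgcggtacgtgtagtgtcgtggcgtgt
Idi1: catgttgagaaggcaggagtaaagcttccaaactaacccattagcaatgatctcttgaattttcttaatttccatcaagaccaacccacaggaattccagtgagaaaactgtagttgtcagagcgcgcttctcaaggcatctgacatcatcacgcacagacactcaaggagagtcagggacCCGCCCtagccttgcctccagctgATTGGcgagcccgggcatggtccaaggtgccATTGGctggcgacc
Lss: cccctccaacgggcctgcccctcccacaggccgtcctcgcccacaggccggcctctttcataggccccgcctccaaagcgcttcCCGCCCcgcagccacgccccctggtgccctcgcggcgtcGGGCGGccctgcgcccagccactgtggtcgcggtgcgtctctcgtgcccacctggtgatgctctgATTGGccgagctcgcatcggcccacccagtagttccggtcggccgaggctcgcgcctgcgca
Cyp51: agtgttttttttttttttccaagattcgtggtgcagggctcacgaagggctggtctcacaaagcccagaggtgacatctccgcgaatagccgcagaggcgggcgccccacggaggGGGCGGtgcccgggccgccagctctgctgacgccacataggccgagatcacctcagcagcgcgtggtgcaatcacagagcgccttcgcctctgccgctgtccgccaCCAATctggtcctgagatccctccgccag
Msmo1: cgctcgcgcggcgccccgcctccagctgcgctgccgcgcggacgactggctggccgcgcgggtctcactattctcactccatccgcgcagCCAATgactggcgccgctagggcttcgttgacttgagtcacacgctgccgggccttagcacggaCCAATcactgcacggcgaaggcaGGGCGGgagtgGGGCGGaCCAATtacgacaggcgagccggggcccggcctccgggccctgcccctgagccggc
Hmgcs1: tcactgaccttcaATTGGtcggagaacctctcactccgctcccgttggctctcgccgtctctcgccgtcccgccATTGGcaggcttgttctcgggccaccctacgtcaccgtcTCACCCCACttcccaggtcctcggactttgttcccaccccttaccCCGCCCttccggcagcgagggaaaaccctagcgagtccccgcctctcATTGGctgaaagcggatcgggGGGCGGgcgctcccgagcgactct
In Insig1, CACGTG begins 101 bases before the start, and in Hmgcs1 TCACCCCAC begins 137 bases before it. Msmo1 holds CCAAT 3 times and GGGCGG 2 times, and Idi1 holds ATTGG, the reverse complement of CCAAT, 2 times. The RefSeq starts of Insig1, Idi1, Lss, Cyp51 and Msmo1 lie inside the GENCODE genes, so part of each window is within the gene. Most of the Msmo1 window is, and all marked motifs of Msmo1 and Idi1 lie in that part. A match is a description of the letters and not of binding.

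Beyond the 31 genes, 50 further genes of sterol and lipid metabolism were read from the same fit, of which 47 had an adjusted p-value. DESeq2 placed 4 of them higher in KO and 0 lower (2.24% and 2.27% of all genes), edgeR called 1, and their median log2 fold change was 0.07. Soat1, which esterifies cholesterol for storage, had 1713, 1566, 1362 and 1351 normalized counts in controls and 2315, 2276 and 2125 in KO libraries. The KO libraries lay well above the controls, a 1.49-fold increase (log2 0.58 ± 0.13 SE; DESeq2 adjusted p 0.000532, edgeR adjusted p 0.0534) that passed DESeq2 in all 7 fits without 1 library. Cers6, a ceramide synthase, had 3448, 3293, 2932 and 3329 in controls and 4331, 5334 and 4741 in KO libraries, a 1.48-fold increase (log2 0.56 ± 0.12 SE; DESeq2 adjusted p 0.000109, edgeR adjusted p 0.0418), also called in all 7. Acsl1, which activates long-chain fatty acids, had 692, 875, 650 and 625 normalized counts in controls and 964, 1069 and 1028 in KO libraries, without overlap (log2 0.52 ± 0.16 SE; DESeq2 adjusted p 0.0357, edgeR adjusted p 0.146). It kept the call in the fit without control 2 and in none of the other 6, where its adjusted p ran from 0.076 without control 4 to 0.263 without KO 2, with 0.156, 0.194, 0.183 and 0.184 without control 1, control 3, KO 1 and the unnumbered KO library.

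The proteases that release SREBP did not pass the test. Mbtps1, the site-1 protease gene, had between 9746 and 12549 normalized counts in controls and between 10664 and 13550 in KO libraries (log2 0.15, 95% interval -0.10 to 0.40). Mbtps2, the site-2 protease gene, had 626 to 770 and 558 to 659 (log2 -0.19, 95% interval -0.50 to 0.12). Of the oxysterol receptor genes, Nr1h2 had 2769 to 3131 in controls and 2503 to 2850 in KO (log2 -0.12, 95% interval -0.33 to 0.09). Nr1h3 was low, with 36.3, 23.6, 41.8 and 42.6 normalized counts in controls and 93.9, 52.7 and 66.7 in KO libraries, which did not overlap (log2 0.97 ± 0.47 SE; DESeq2 adjusted p 0.341).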

How the data were processed

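Per the submitters' processing notes, the tools were FastQC, STAR, featureCounts and DESeq2 with the build mm10, and the authors deposited raw whole-number counts per gene. Versions, annotation and strand setting are not given in the sources used here. All 7 count columns were used. The KO column numbered 4 matches no KO title and is called the unnumbered KO library. The 35178 genes with at least 1 count entered 1 DESeq2 model (version 1.42.0, R 4.3.3; Wald statistic, no covariate, threshold 0.05, Benjamini-Hochberg over all genes), the test named in the design text. The edgeR 4.0.16 quasi-likelihood test was the first alternative. Log2 fold changes are KO over control, and intervals are 95% Wald intervals. Normalized counts are counts divided by size factors, and levels per length use GENCODE M21 union exons (GRCm38), whose 55536 gene IDs equal those of the table. Between 84.4% and 88.9% of counts from 1 to 10 were even, a pattern that counting both mates of a read pair would give. Such counting, as well as the number of libraries, can affect the precision. With the counts halved, DESeq2 called 751 genes against 792, and 5 of the 31 against 6, with Lss no longer called. The labels do not say whether libraries came from separate animals. The p-values therefore set the group difference against variation between libraries, as each tool models it, which may not be variation between animals. Genes named with full values were those past the threshold, those without overlap, regulators, entry enzymes and extremes per length. The gene set, lists and tests were chosen with earlier results of these data known. Both tests were run on simulated counts with known changes. They recovered the simulated fold changes, but the share of false calls was many times the threshold in DESeq2 and near it in edgeR. The simulation changed 200 genes and took the spread estimated for each gene as its true spread. Its shares of false calls need not hold for these data. DESeq2 was kept as the main test because the design text names it. Of the further lipid genes past the threshold, 1 is not reported here.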

Additional observations from a re-analysis of the deposited data

Results flagged for a closer look

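Dixon's criterion (95%) was applied to the 4 control values of 46 genes and ratios. It marked a control far from its group in 5 of them, against 2.3 by chance. The gap between that library and its nearest neighbour, as a share of the whole control range, was 0.936 for Hmgcs1, where control 4 was lowest, and 0.861 for Scd2, again with control 4 lowest. It was 0.938 for Fasn and 0.834 for Hsd17b7, both with control 3 highest. It was 0.896 for Dhcr7, with control 2 highest.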

How the results depend on the processing

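The number of genes called over all genes was 203 in edgeR against 792, and ran from 430 (without KO 1) to 907 when 1 library was left out. Of the 31 genes, edgeR called 0 (13 at an unadjusted p under 0.05, as in DESeq2), library totals as size factors 11, and the fits without 1 library from 1 to 7. The shares of all genes called were 1.05% in edgeR, 5.41% with library totals and 2.39% to 5.23% in the fits without 1 library. Library totals as size factors called 684 of all genes higher and 297 lower. With library totals the median of all genes was 0.11 and that of the 31 genes 0.35. Without the 2 deepest libraries 8 of the 31 were called, among them Hmgcs1, Sqle and Lss, beside 5.49% of all genes. Of the 50 further genes, edgeR called 1, a fit without independent filtering and Cook's filter 2, and the fits without 1 library from 2 to 5. All calls among the 31 genes under each alternative run were in the direction of an increase. The 2 column numbers shared by both groups do not pair the samples by any label. Same-numbered libraries deviated together (correlations 0.292 and 0.285 over 12712 genes). The correlation was -0.127 for control 1 with KO 2 and 0.052 for control 2 with KO 1. With the replicate number as a block on those 4 libraries, the count over all genes was 578 (3.81%), against 620 (3.80%) without the block. Of the 31 genes 5 were called, against 6. The block kept Insig1, Cyp51, Scd2, Hmgcs1 and Sqle, and Msmo1 was called without it (adjusted p 0.0412) and not with it (0.120). Idi1 and Lss were called in neither fit (0.148 and 0.341 with the block, 0.0933 and 0.232 without), while Hmgcs1 and Sqle were called in both. The log2 fold changes that changed sign belonged to genes that were not called. With library totals they were 0.10 for Abca1 and 0.10 for Scap. With the block they were 0.035 for Fads1 and 0.00031 for Fads2, and on the same libraries without it 0.039 and 0.028. Over the fits without 1 library, values spanned -0.089 to 0.15 for Abca1, -0.024 to 0.20 for Acly, -0.26 to 0.014 for Fads1, -0.44 to 0.015 for Fads2, -0.10 to 0.71 for Mvd and -0.14 to 0.088 for Scap, and -0.38 to 0.028 for the genotype difference in the Scd1 to Scd2 ratio. The cause of these shifts was not tested. Keeping genes at 0 in every library, and the 4 libraries without the block, were chosen after the data were seen.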
